A study of Homo sapiens with 6 samples.

Results

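The genes of the ATF4 and amino acid response were examined in L428 cells, an established Hodgkin lymphoma line, after nucleofection with BATF3 siRNA or with a negative control siRNA. The 36 genes were listed by name for their known place in this response, with earlier results of these data known, and 35 of them were found among the 18244 genes measured. GPT2 was not analysed here. A gene with several probe sets is represented by its brightest on average. Both groups received 3 µg of siRNA by nucleofection and were cultured for 48 hours, and each was measured on 3 PrimeView arrays. The control cells went through the same nucleofection, the BATF3 siRNA was 1 condition, and the labels do not say whether replicates were separate cultures. P-values here therefore cover the variation among these 6 arrays, which may be technical. In such bulk RNA, fewer cells of a kind and less RNA per cell cannot be told apart.

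ATF4 is a basic leucine zipper (bZIP) transcription factor whose protein is made mainly when the initiation factor eIF2 is phosphorylated, as occurs when amino acids run short, proteins misfold in the endoplasmic reticulum, haem is lacking or double-stranded RNA is sensed. It pairs with C/EBP proteins on composite C/EBP-ATF response elements and turns on genes that import and make amino acids, other bZIP factors and feedback regulators that end the response. ATF4 activity is therefore read from its targets rather than from ATF4 mRNA alone. BATF3, the targeted gene, is itself a bZIP factor, of the AP-1 family.

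The measured values are on a log2 scale as deposited, so a difference of 1 is a doubling. BATF3 itself was at 10.87, 10.76 and 10.69 in BATF3 siRNA replicates 1 to 3 and at 11.89, 12.08 and 11.94 in the controls. It differed by −1.20 (SE 0.095), with limma adjusted p = 0.00673, and the groups did not overlap. The difference was −1.16 without BATF3 siRNA replicate 3 (limma adjusted p = 0.0688) and −1.14 without control replicate 2 (0.0648), and −1.10 with array background as a block (0.306), so its call was lost there. Levels were compared with the array background probe set of 25 G and C bases per probe, which was taken as the brightest. Above background means brighter than this probe set. Of 12 markers of Hodgkin and B lineage cells 9 were above background throughout, among them TNFRSF8, which encodes CD30. Each of the 8 T and NK cell, 8 myeloid and 8 fibroblast and epithelial markers was dimmer than this probe set throughout, and 0 were called. Array background with many G and C bases (20 to 25 per probe) was 5.92 and 5.98 in BATF3 siRNA replicates 2 and 3 and 6.46 to 6.49 in the other arrays. BATF3 siRNA replicate 1 matched the controls in this respect, and its own values are given beside the main results.

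Of the 35 measured genes of the response, 0 passed the threshold of limma adjusted p under 0.05, over all genes 3 did (0.0164%), and the smallest adjusted p among the members was 0.226. At an unadjusted p under 0.05, 9 members were higher after BATF3 siRNA (25.7%), where 3.73% of all genes were higher, and 0 were lower, where 3.42% of all genes were. For 11 members (31.4%) the 3 BATF3 siRNA arrays lay wholly above the 3 controls, against 6.36% of all genes, and 0 lay wholly below, against 5.78%. The median log2 change was 0.098 over members and −0.0027 over all genes. The change was positive for 30 of 35 members as deposited, 29 after quantile normalization, 32 after median centring and 31 after cyclic loess. Leaving out 1 array at a time gave 7 to 10 members higher at an unadjusted p under 0.05, where 2.36% to 4.81% of all genes were. It gave 12 to 18 members higher without overlap, where 9.29% to 14.35% of all genes were, and the 18 came without BATF3 siRNA replicate 2 (10.6%). In the other direction GDF15 was lower at an unadjusted p under 0.05, and without overlap, without control replicate 2. ALDH18A1 was lower without overlap when BATF3 siRNA replicate 2 or control replicate 1 was left out. Over all genes 2.28% to 5.77% were lower by the first measure and 8.85% to 15.7% by the second.

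**Figure D1:**
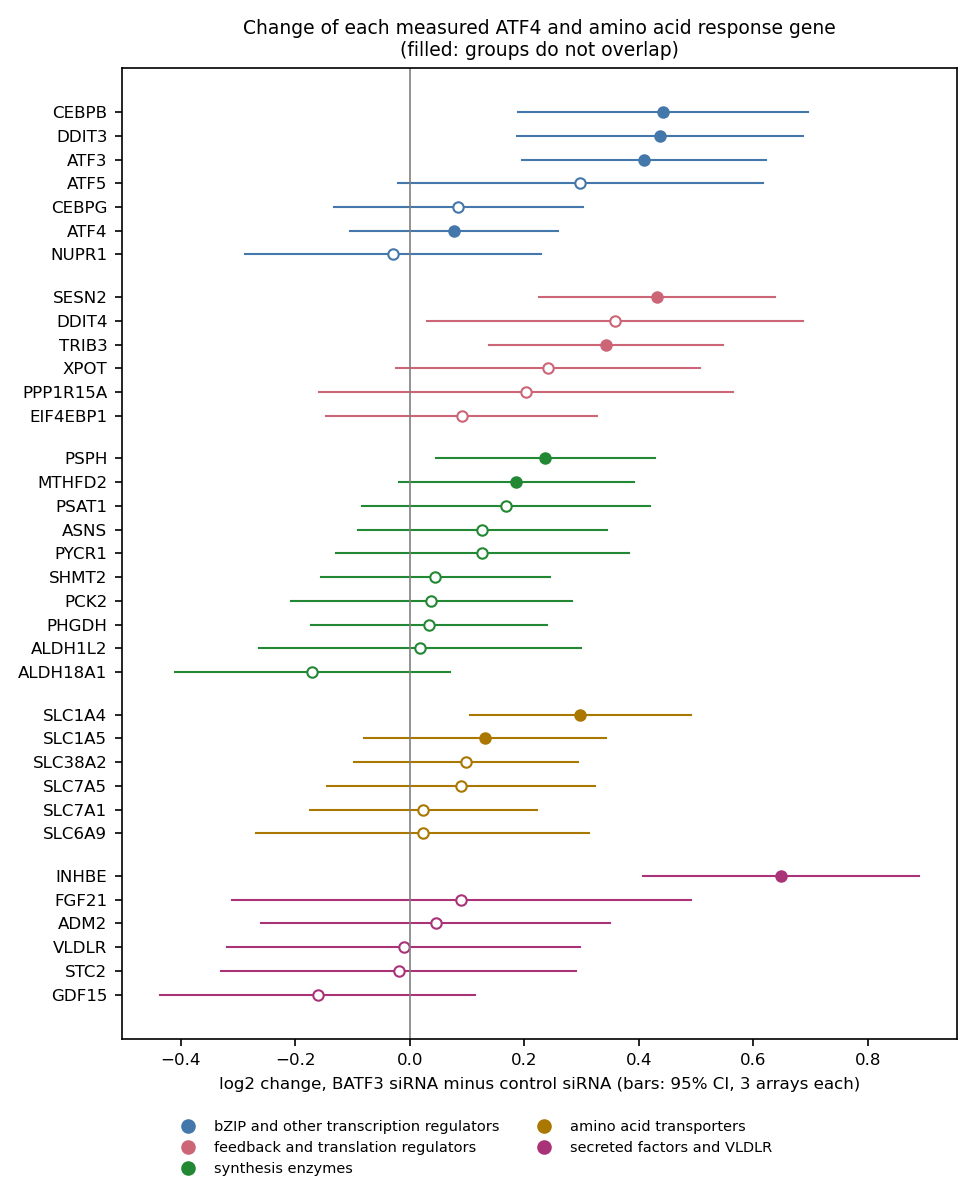
Log2 change of each of the 35 measured members, BATF3 siRNA minus control siRNA, coloured by role; bars are 95% confidence intervals from limma with 3 arrays per group, and filled points mark the 11 members whose groups did not overlap. Most regulators lie right of 0, INHBE is the farthest right at 0.65, and most enzymes and transporters lie between 0 and 0.3.

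Among these genes the changes differed by role. The median change was 0.30 for 7 transcription regulators and 0.29 for 6 feedback and translation regulators. It was 0.086 for 10 synthesis enzymes, 0.094 for 6 amino acid transporters and 0.017 for the group of 5 secreted factors with the receptor VLDLR. Groups did not overlap, with BATF3 siRNA higher, for 4 of 7, 2 of 6, 2 of 10, 2 of 6 and 1 of 6 members in that order, where 6.36% of all genes were of this kind. In the secreted group 5 of 6 genes were dimmer than the brightest background probe set in all arrays, so its median says little. The other, INHBE, differed by 0.65. The difference between the roles was described and not tested.

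The element through which ATF4 acts was looked for in promoter windows from RefSeq (GRCh38.p14), 250 bases before to 50 after a start site, which covered 28 of the 36 genes and not NUPR1, EIF4EBP1, PSPH, SHMT2, ALDH1L2, PYCR1, GPT2 or INHBE. The letters searched were TGATGNAA on either strand, the core of the C/EBP-ATF response element, where N is any base. They were found for 7 of the 28 genes (25%), and for 4.46% of all 27305 genes with a window, whether measured here or not. A gene can have several windows. By window the shares were 17.1% of 41 for members and 3.62% of 35116 for all genes. The sites are shown as 30 bases each on the strand of the gene, 5′ to 3′, with the matched letters in capitals. Binding of ATF4 to them was not measured.

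ASNS: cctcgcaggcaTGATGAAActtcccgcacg
ATF3: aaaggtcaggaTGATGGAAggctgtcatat
CEBPG: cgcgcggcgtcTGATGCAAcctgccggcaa
FGF21: aaacaccaggaTTGCATCAgggaggaggag
SLC1A4: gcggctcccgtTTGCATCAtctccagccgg
SLC1A5: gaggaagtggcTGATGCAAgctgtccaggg
SLC7A1: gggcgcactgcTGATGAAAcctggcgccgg

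The ASNS stretch lies on the minus strand at chr7:97872458-97872487, with the match beginning at base −68 relative to the start. That of ATF3 is on the plus strand at chr1:212565205-212565234 (base −191), that of CEBPG on the plus strand at chr19:33374060-33374089 (base −42) and that of FGF21 on the plus strand at chr19:48755459-48755488 (base −54). The SLC1A4 stretch is on the plus strand at chr2:64989381-64989410 and its match begins at base −7 and runs into the first exon. That of SLC1A5 is on the minus strand at chr19:46784893-46784922 (base −97). In SLC7A1, on the minus strand at chr13:29595663-29595692, the match begins at base 8 of the transcript. FGF21 and SLC1A4 hold the letters in the reverse orientation. CEBPG, SLC1A5, FGF21 and SLC1A4 share the same 8 letters once orientation is set aside, and ASNS and SLC7A1 share another form.

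Members with and without a match were set side by side. The median change was 0.13 for the 7 genes with a match and 0.098 for the 21 measured genes with a window but no match, and groups did not overlap, with BATF3 siRNA higher, for 3 of 7 and 6 of 21. Over all measured genes with a window these counts were 43 of 523 with a match and 883 of 13971 without. ATF3 and SLC1A4 were among the members with larger changes, whereas CEBPG, FGF21 and SLC7A1 differed by 0.085, 0.090 and 0.023, and the last of these was −0.0016 after quantile normalization. FGF21 was dimmer than the brightest background probe set in all 6 arrays, so its value says little. Another SLC7A1 probe set, above background throughout, differed by 0.19 without overlap. Sites outside this window were not examined.

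Of the transcription regulators, ATF4 itself was nearly level. Its mRNA was at 12.77, 12.74 and 12.77 in BATF3 siRNA replicates 1 to 3 and at 12.68, 12.68 and 12.70 in the controls. The arrays of the groups did not overlap, but the difference was only 0.077 (SE 0.081, 95% confidence interval −0.10 to 0.26; limma adjusted p = 0.892). ATF4 protein was not measured.

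ATF3, a bZIP factor induced by many stresses and a target of ATF4, stood at 10.94, 10.80 and 10.86 after BATF3 siRNA and at 10.48, 10.56 and 10.34 after control siRNA. Every BATF3 siRNA array was above every control. The difference was 0.41 (SE 0.094; limma adjusted p = 0.418), a ratio of 1.33. BATF3 siRNA replicate 1 alone was 0.48 above the control mean. Of its 7 probe sets 5 were above background throughout, with differences of 0.23 to 0.49, and 4 of these did not overlap.

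DDIT3 encodes CHOP, the bZIP factor that links prolonged stress to cell death. Its level was 7.02, 6.81 and 7.15 after BATF3 siRNA against 6.46, 6.53 and 6.68 in the controls. The groups did not overlap, and their means differed by 0.44 (SE 0.11; limma adjusted p = 0.448). BATF3 siRNA replicate 1 alone was 0.46 above the control mean. In 4 of 6 arrays, namely the controls and BATF3 siRNA replicate 1, DDIT3 was dimmer than the brightest background probe set, and its second probe set was so in all 6.

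CEBPB, a C/EBP partner of ATF4, read 7.80, 7.65 and 7.77 after BATF3 siRNA and 7.41, 7.07 and 7.41 in the controls. The groups did not overlap, and their means differed by 0.44 (SE 0.11; limma adjusted p = 0.448). Control replicate 2 was the lowest array and the only one dimmer than the brightest background probe set. BATF3 siRNA replicate 1 alone was 0.50 above the control mean. CEBPG, the other C/EBP partner listed, overlapped between groups and differed by 0.085. ATF5, an ATF4 relative under similar translational control, was at 11.22, 10.61 and 10.87 against 10.66, 10.55 and 10.61. Its difference of 0.30 (limma adjusted p = 0.730) was 0.14 without BATF3 siRNA replicate 1, and replicate 2 lay within the controls. The 4 ATF5 probe sets differed by 0.21 to 0.47. In the probe set with the difference of 0.47, at 10.35, 10.05 and 10.21 against 9.87, 9.51 and 9.81, the groups did not overlap. NUPR1, a small stress-induced chromatin protein, was dimmer than the brightest background probe set throughout and differed by −0.029, which turned positive without BATF3 siRNA replicate 1 or control replicate 3.

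**Figure D2:**
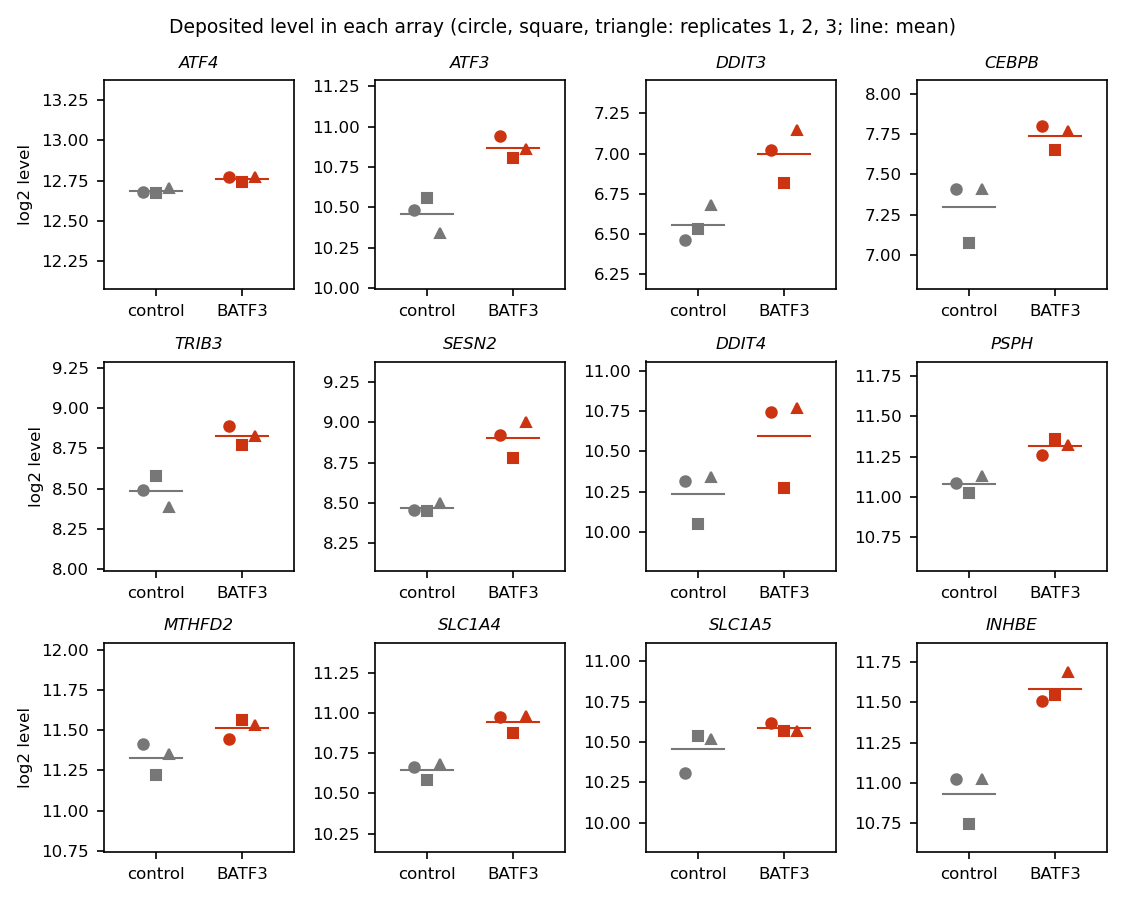
Deposited log2 level of 12 members in each array, for control siRNA (grey) and BATF3 siRNA (red), with the group mean as a line; every panel spans the same 1.3 log2 units. ATF4 is nearly flat, INHBE and SESN2 have the widest gaps between the groups (0.48 and 0.28), and in DDIT4 the lowest BATF3 siRNA array (10.27) falls among the controls.

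Of the 6 feedback and translation regulators, 3 were higher at an unadjusted p under 0.05, where 3.73% of all genes were, and all 6 had a positive difference under every normalization tried. SESN2, a leucine sensor that restrains mTORC1, was at 8.92, 8.78 and 9.003 after BATF3 siRNA and at 8.46, 8.45 and 8.50 in the controls. The controls were close together and the groups did not overlap, with a difference in means of 0.43 (SE 0.092; limma adjusted p = 0.365), a ratio of 1.35. In BATF3 siRNA replicate 1 alone it was 0.45 above the control mean. Its other probe set, with a difference of 0.58 and no overlap, was dimmer than the brightest background probe set in 2 arrays.

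TRIB3, a pseudokinase that binds ATF4 and dampens it, had levels of 8.89, 8.77 and 8.83 against 8.49, 8.58 and 8.39. The groups did not overlap and differed by 0.34 (SE 0.091; limma adjusted p = 0.475). BATF3 siRNA replicate 1 alone stood 0.40 above the control mean. The second TRIB3 probe set, dimmer than the brightest background probe set throughout, differed by 0.040 with overlap.

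DDIT4, an inhibitor of mTORC1 also known as REDD1, was at 10.74, 10.27 and 10.77 against 10.32, 10.05 and 10.34. Replicate 2 was the lowest array of both groups and the groups overlapped, with a difference of 0.36 (SE 0.15; limma adjusted p = 0.676). PPP1R15A, or GADD34, which brings the phosphatase that reverses eIF2 phosphorylation, varied widely from array to array, at 8.64, 7.95 and 8.36 against 8.22, 7.99 and 8.12. Its difference of 0.20 (SE 0.16) was 0.041 without BATF3 siRNA replicate 1. XPOT, the exportin for tRNA, differed by 0.24 and EIF4EBP1, a repressor of cap-dependent translation, by 0.090, both with overlap.

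Of the 10 synthesis enzymes measured, 1 was higher at an unadjusted p under 0.05, namely PSPH, where 3.73% of all genes were. PSPH, which catalyses the last step of serine synthesis, stood at 11.26, 11.36 and 11.32 after BATF3 siRNA and at 11.09, 11.02 and 11.13 in the controls. The groups did not overlap, and their means differed by 0.24 (SE 0.085; limma adjusted p = 0.612). The one other PSPH probe set above background differed by 0.13, with overlap.

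MTHFD2, a mitochondrial folate enzyme, was at 11.45, 11.56 and 11.53 against 11.41, 11.22 and 11.35. The group means differed by 0.19 (SE 0.091; limma adjusted p = 0.736) without overlap, though the nearest arrays of the groups were 0.034 apart. The first 2 steps of serine synthesis did not stand out, with PHGDH at 0.033 (−0.0067 with array weights) and PSAT1 at 0.17. PSAT1 had 8 probe sets with differences of 0.17 to 0.44, of which 2 did not overlap. SHMT2, which passes the carbon of serine into the folate pool, differed by 0.045.

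ASNS, asparagine synthetase and a classic amino acid response gene, was at 11.81, 11.68 and 11.83 against 11.69, 11.51 and 11.74. The groups overlapped, and the difference was 0.13 with a 95% confidence interval of −0.091 to 0.34. Each of its 4 probe sets differed by 0.12 to 0.15. PCK2, mitochondrial phosphoenolpyruvate carboxykinase, differed by 0.038 (−0.028 with array weights).

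The enzymes of proline synthesis, PYCR1 and ALDH18A1, had differences of opposite sign. PYCR1 differed by 0.13 and 0.023 in its 2 probe sets above background throughout, both with overlap, and its other 4 were dimmer than the brightest background probe set in 5 or 6 arrays. ALDH18A1 was the member lowest in change, at −0.17 (limma adjusted p = 0.812), and its second probe set, at −0.36, was the single member probe set whose BATF3 siRNA arrays all lay below the controls. ALDH1L2, a mitochondrial folate dehydrogenase, was at 4.74 to 5.15, dimmer than the brightest background probe set throughout.

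Among the transporters, SLC1A4, which carries serine and alanine, stood out at 10.97, 10.87 and 10.98 against 10.67, 10.59 and 10.68. The groups did not overlap and differed by 0.30 (SE 0.086; limma adjusted p = 0.507). In BATF3 siRNA replicate 1 alone it was 0.33 above the control mean. Differences of its 6 probe sets ran from 0.10 to 0.30, and 3 did not overlap.

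SLC1A5, the glutamine carrier, was at 10.62, 10.57 and 10.57 against 10.31, 10.53 and 10.52. The arrays did not overlap, but control replicates 2 and 3 lay close below the BATF3 siRNA arrays, and the difference of 0.13 (SE 0.094; limma adjusted p = 0.842) was 0.059 without control replicate 1. In each of its 3 probe sets the groups did not overlap, and the group means differed by 0.12 to 0.14. SLC38A2, which carries small neutral amino acids, differed by 0.098, SLC7A5, the leucine carrier, by 0.090 and SLC7A1, the arginine and lysine carrier, by 0.023. Each of these overlapped in its brightest probe set. The leucine carrier's difference in that probe set was 3.30e-04 without BATF3 siRNA replicate 1. A dimmer probe set above background throughout differed without overlap for SLC7A5 (0.22) and for SLC7A1 (0.19). Of the 4 SLC7A1 probe sets 3 were higher and 1 was lower. SLC6A9, a glycine carrier, was at 5.40 to 5.87, dimmer than the brightest background probe set throughout.

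The largest change of any member was that of INHBE, which encodes the inhibin beta E subunit, a secreted TGF-beta family protein known as a stress-responsive ATF4 target. It read 11.51, 11.55 and 11.69 after BATF3 siRNA and 11.02, 10.75 and 11.03 after control siRNA. The lowest BATF3 siRNA array was 0.48 above the highest control. The difference was 0.65 (SE 0.11, 95% confidence interval 0.41 to 0.89), a ratio of 1.57, with limma adjusted p = 0.226. BATF3 siRNA replicate 1 alone was 0.57 above the control mean. INHBE passed the threshold with an intensity trend and robust prior (limma adjusted p = 0.0276) and with array weights (0.0420), within a range over the 17 alternatives of 0.0276 to 0.827, and had a single probe set.

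The other secreted members did not follow INHBE. FGF21 and GDF15, stress hormones, STC2, a secreted glycoprotein, ADM2, a peptide of the calcitonin family, and the lipoprotein receptor VLDLR were each dimmer than the brightest background probe set in all 6 arrays. Their differences ran from −0.16 for GDF15 to 0.090 for FGF21, all with overlap, and of them STC2 (0.0025) and VLDLR (0.011) turned positive after median centring. The bases of the probes were not examined, so the background that applies to each is unknown and these small values say little about these transcripts. Over the 8 members of this kind, which also include NUPR1, ALDH1L2 and SLC6A9, the median change was 0.0036. Over the 25 members above background throughout it was 0.13, where it was 0.011 over all genes of that kind.

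The BATF3 siRNA arrays differed among themselves in how many members lay above the controls. In replicate 1, 26 of 35 members lay above all 3 controls, in replicate 3, 20, and in replicate 2, 13. Over all genes these shares were 25.9%, 25.3% and 24.7% for replicates 1, 3 and 2, and over members 74.3%, 57.1% and 37.1%. The median member deviation from the control mean was 0.18, 0.13 and 0.039 in that order, against −0.028 to 0.029 in the controls.

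The medians by array are given for each role. For transcription regulators the medians were 0.46, 0.058 and 0.27 in BATF3 siRNA replicates 1 to 3. Their controls ran from −0.028 to 0.054, so replicate 2 was near the control range. Without replicate 1 the group median was 0.14. The feedback regulators stood at 0.43, 0.15 and 0.37, with controls at −0.070 to 0.044. Synthesis enzymes were at 0.17, −0.0080 and 0.046, their replicates 2 and 3 near the control range of −0.028 to 0.023, and their group median was 0.047 without replicate 1. Transporters were more even, at 0.13, 0.077 and 0.11, with controls at −0.038 to 0.052. The secreted group stood at 0.026, 0.024 and 0.042, with the controls at −0.0090, 0.24 and −0.10, so control replicate 2 was the highest array. The secreted group's median was 0.15 without control replicate 2 and −0.054 without control replicate 3. It was also below 0 without control replicate 1 or BATF3 siRNA replicate 3. BATF3 siRNA replicates 2 and 3 shared the lower GC-rich background, at 5.92 and 5.98, and replicate 1 had 6.49. The part of this background in the differences between arrays was not tested.

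**Figure D3:**
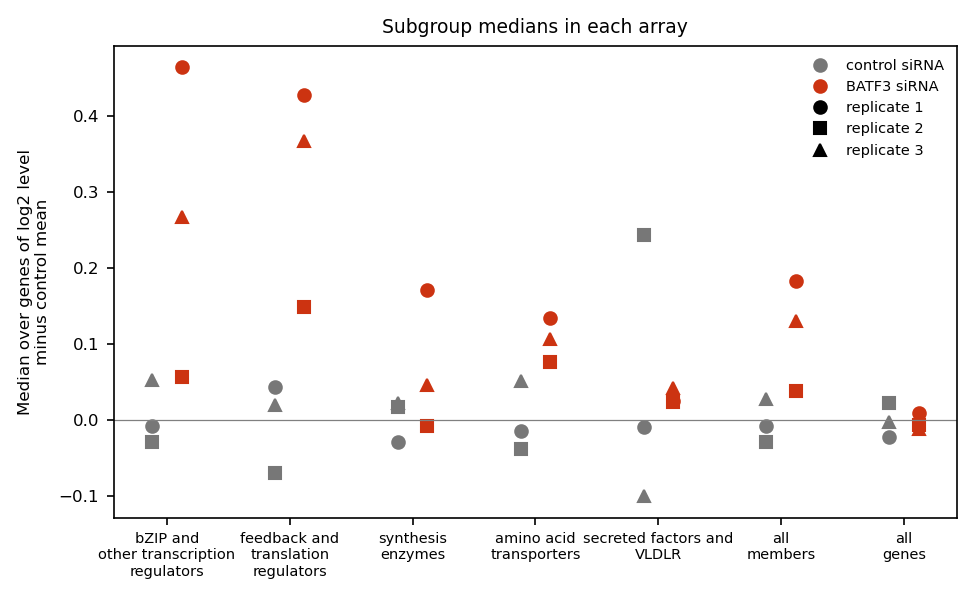
Median over the genes of each role of the log2 level minus the control mean, in each array (grey, control siRNA; red, BATF3 siRNA; marker shape, replicate), with all members and all 18244 genes at the right. The regulators are highest in BATF3 siRNA replicates 1 and 3 (0.46 and 0.27 for transcription regulators), and all genes stay within 0.023 of 0.

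Where a gene had several probe sets, most pointed the same way. The 35 genes had 103 probe sets, of which 83 were higher and 20 lower. Groups did not overlap for 26 with BATF3 siRNA higher and for 1 with it lower, where 6.54% and 5.87% of all probe sets with 1 gene did so. Of the 103, 67 were above background throughout, with 64 higher and 3 lower, and 30 were dimmer than the brightest background probe set in all arrays. For 7 genes the probe sets differed in sign, namely PYCR1, PCK2, SLC7A1, SLC6A9, STC2, GDF15 and ADM2, and for 1 of these, PCK2, they did so among probe sets above background. Probe sets of 1 gene share transcripts and are not replicates.

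Other genes of the pathway were read from lists. Of 22 further ATF4 target genes, 0 passed the threshold, 5 were higher without overlap, where 6.36% of all genes were, and the median change was 0.11. CTH, which makes cysteine from cystathionine, stood at 8.96, 8.71 and 9.01 against 8.21, 8.09 and 8.28, and differed by 0.70 (SE 0.11; limma adjusted p = 0.193). SLC7A11, the cystine carrier, was 0.48 higher and CHAC1, a glutathione-degrading enzyme, 0.34 higher, the latter dimmer than the brightest background probe set throughout. CTH passed the threshold with the same trend and weights as INHBE and among genes above the median level (limma adjusted p = 0.0367, 0.0458 and 0.0431), but not among genes with a mean of at least 4 (0.149), within a range over 17 alternatives of 0.0367 to 0.827.

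Upstream of ATF4, the 18 measured genes for eIF2 kinases, eIF2, its exchange factor eIF2B and their regulators had a median change of 0.045, with 0 called and 3 of 18 higher without overlap, where 6.36% of all genes were. EIF2AK2, or PKR, the eIF2 kinase activated by double-stranded RNA, was at 10.35, 10.45 and 10.40 against 10.23, 10.16 and 10.20. The groups did not overlap, and their means differed by 0.20 (SE 0.083; limma adjusted p = 0.689). PPP1R15B, the constitutive partner of the eIF2 phosphatase, was 0.19 higher and EIF2S2, the beta subunit of eIF2, 0.16 higher, both without overlap, but EIF2S2 differed by −0.12 in its most variable probe set.

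Of 13 cytosolic tRNA synthetases, many of them ATF4 targets, 0 were called, 3 were higher without overlap, where 6.36% of all genes were, and the median change was 0.075. IARS1 differed by 0.17, YARS1 by 0.14 and VARS1 by −0.22. The promoter letters were found for 7 of the 10 synthetases with a window, where 4.46% of all genes with a window had them. Among genes with a window they were also found for 7 of 18 further ATF4 targets and 1 of 16 in the eIF2 list. Target genes of ATF6 and XBP1, the other arms of the endoplasmic reticulum stress response, had a median change of 0.082 over 18 genes. Of these 0 were called, and 2 were higher and 1 lower without overlap, where 6.36% and 5.78% of all genes were. The letters were in the windows of 0 of 18 genes, too few genes for a contrast with 4.46%. DNAJB9 differed by 0.30 with overlap, EDEM1 by 0.15, and CRELD2, at −0.20, was lower without overlap.

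**Figure D4:**
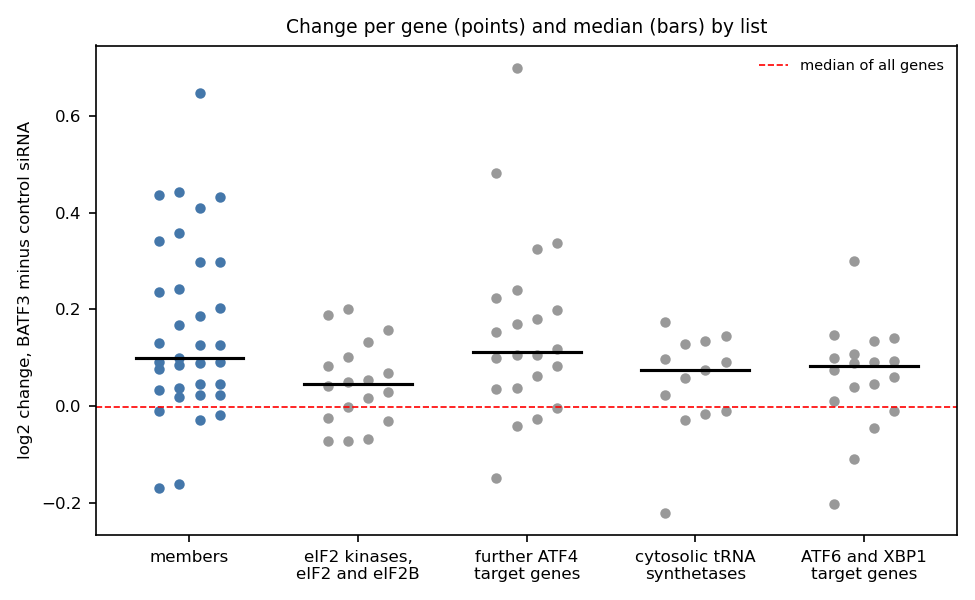
Log2 change of each gene (points), BATF3 siRNA minus control siRNA, and the median (bars) for the members and 4 further lists; the dashed line is the median of all genes (−0.0027). The members and the further ATF4 targets have the widest upper tails, reaching 0.65 for INHBE and 0.70 for CTH, while the eIF2 list stays at or below 0.20.

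With 3 arrays against 3, a two-sided exact permutation test of any single gene cannot give a p under 0.1, which is why single-gene p-values are from limma across all genes.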

How the data were processed

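Total RNA from L428 cells was measured on 6 arrays. The authors deposited 1 log2 value per probe set and array. Base 2 was read from the range of these values. The affy package for R is named in the submitters' processing notes, without a version, and its steps are not stated. Normalization to a common scale would hide a shift of most transcripts in 1 direction. Of 49495 probe sets 45278 had 1 gene in the platform annotation, giving 18244 genes, and the other probe sets were not used for genes. Symbols were checked by Entrez identifier in a RefSeq table (identifier found for 45208 probe sets, 0 symbols changed).

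Differences were fitted by limma's lmFit and eBayes (version 3.58.1, R 4.3.3; two-sided, 3 arrays against 3, no covariate), adjusted by Benjamini-Hochberg over all genes and called at an adjusted p under 0.05. As a check of the code, the fit was run on simulated data, and no result here rests on it. The number of arrays limits the precision (median SE 0.107). Lists are described by counts and medians. The members, roles and lists were chosen with earlier results of these data known. Every member is named. Values in every array are given for members with an unadjusted p under 0.05 or without overlap, for ATF4 and, chosen after their values were seen, for ATF5, PPP1R15A, ASNS, CTH and EIF2AK2. From each pathway list the 3 genes with the smallest p are named. Alternatives covered normalization, dim genes, probe set choice, an intensity trend with a robust prior, array weights, the replicate number, array background and leaving out each array.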

Additional observations from a re-analysis of the deposited data

How the results depend on the processing

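Across 17 alternatives the members called numbered 0 except for 1, INHBE, with an intensity trend and robust prior and 1 with array weights. In both, 12 of 35 members had an unadjusted p under 0.05. Of all 18244 genes, 1294 did so with the trend and 3312 with array weights. The weights ran from 0.38 for control replicate 2 to 3.85 for control replicate 3. Over all genes limma called 9 among genes above the median level, 5 with the most variable probe set, 12 with the trend and 25 with array weights. It called 0 with GC-rich background as a block (1011 at an unadjusted p under 0.05) and 0 to 2 on leaving out 1 array (0 without BATF3 siRNA replicate 3, where 852 had an unadjusted p under 0.05, and likewise without control replicate 2, where 1446 did). BATF3 was at −1.10 with the background block (limma adjusted p = 0.306) and −1.24 to −1.14 on leaving out 1 array.

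The member median was 0.17 among genes above the median level. With the background block, which sets BATF3 siRNA replicate 1 against the controls, medians were 0.18 for members, 0.46 for transcription regulators, 0.43 for feedback regulators, 0.17 for enzymes and 0.13 for transporters. Transporters were at 0.14 with the most variable probe set and 0.043 with array weights. The secreted group was at 0.65 among genes above the median level, where INHBE alone remained, and 0.15 with array weights. On leaving out 1 array, transcription regulators ran from 0.14 to 0.44 and the secreted group from −0.054 to 0.15. The cause of these moves was not tested.

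Changes of 12 members turned sign somewhere. With array weights PHGDH was at −0.0067, ALDH1L2 −0.066, PCK2 −0.028, SLC7A1 −0.024, SLC6A9 −0.079, STC2 0.055 and VLDLR 0.065. With the mean of all probe sets PYCR1 was at −0.031, SLC6A9 −0.039, STC2 0.031, ADM2 −0.0062 and EIF2S2 −0.0074. By the most variable probe set PYCR1 was at −0.23, EIF2S2 −0.12 and VARS1 0.017. SLC7A1 was at −0.0016 after quantile normalization, STC2 0.0025 and VLDLR 0.011 after median centring, and VLDLR 2.63e-04 after cyclic loess. With the background block SLC6A9 was at −0.12, STC2 0.21 and FGF21 −0.20. On leaving out 1 array the ranges were −0.12 to 0.076 for NUPR1, −0.024 to 0.084 for PHGDH, −0.0044 to 0.083 for SHMT2, −0.10 to 0.10 for ALDH1L2, −0.043 to 0.10 for PCK2 and −0.018 to 0.067 for SLC7A1. They were −0.099 to 0.14 for SLC6A9, −0.13 to 0.11 for STC2, −0.051 to 0.26 for FGF21, −0.10 to 0.16 for ADM2 and −0.13 to 0.13 for VLDLR. The cause of each was not tested.

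The replicate numbers are shared by the groups, but deviations of same-numbered arrays correlated at 0.029, 0.15 and −0.025, so the numbers were not taken to pair the arrays. Over the members alone the same-numbered values were 0.28, 0.22 and 0.093, above each differently numbered pair (highest 0.020). With the replicate block 3 genes and 0 members were called (1302 genes and 10 members at an unadjusted p under 0.05), and it changed no call.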
